A study of Mus musculus with 4 samples.

Results

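Cholecystokinin and the receptors through which gut, pancreatic and adipose hormones reach the brain were measured in the hypothalamus of male mice aged 12 weeks. The group comprised 9 genes, each represented by 1 probe set among the 25175 named probe sets of 22405 genes: the peptide gene Cck, its receptors Cckar and Cckbr, the incretin receptors Glp1r and Gipr, the calcitonin receptor Calcr with the receptor-modifying protein Ramp3, and the adiponectin receptors Adipor1 and Adipor2. They were chosen by the gene symbol in the authors' annotation column. The study comprised 4 Affymetrix arrays of hypothalamic total RNA, 2 from wild-type mice (control A and B) and 2 from mice whose genotype is written ENOI2DeltaFosB (ΔFosB A and B), all untreated. Eno2 encodes neuron-specific enolase, and ΔFosB is a truncated splice form of FosB, a transcription factor of the AP-1 family. What drives the transgene, and whether each array stood for a separate animal, is not stated in the labels. Each p-value therefore reflects the spread among these 4 arrays alone, and part of that spread may be technical.

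Cholecystokinin is both an intestinal hormone released after a meal and an abundant neuropeptide of the forebrain. Its A-type receptor carries the satiety signal along the vagus nerve and is found in a few brain nuclei, and its B-type receptor is the widespread brain form. Glucagon-like peptide 1 and glucose-dependent insulinotropic polypeptide are incretins, gut hormones that raise insulin secretion, and both act on receptors coupled to cyclic AMP. The calcitonin receptor binds calcitonin alone and becomes a receptor for amylin, a hormone of the pancreatic beta cell, when a RAMP protein joins it. The adiponectin receptors pass the signal of a fat-cell hormone to AMP-activated protein kinase and to PPARα.

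Calcr and Glp1r rose in the ΔFosB hypothalamus, by 2.1-fold and 1.96-fold, and Adipor2 fell by 1.38-fold. Cckar also rose, by at least 1.28-fold, a bound because its control signals lay in the range of background. Of 15229 genes tested, 0.08% had a higher log2 fold change than Calcr and 0.11% than Glp1r. Cck and Ramp3 had lower mean signals on the ΔFosB arrays but also differed between the arrays of 1 group, and neither passed the test on all 4 arrays without a block. Cckbr and Adipor1 did not pass that test either, with measured differences of 1.13-fold and 1.1-fold, and the interval of Cckbr reached 1.31-fold. Gipr lay in the range of background on all 4 arrays. Of the 8 genes past the filter on low signals, 3 rose, 1 fell and 4 did not pass (limma's moderated test, Benjamini-Hochberg adjusted p under 0.05 over all genes, n = 2 arrays per group). Over all genes tested the same rule called 12.5%, with 5.82% higher and 6.63% lower, so that 887 genes rose and 1010 fell. With each array centred on its median, 639 rose and 1249 fell. The median log2 fold change was 0.02 over the 8 genes, and 0.02 over all genes tested.

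The sequences just before the transcription starts of Cck and of the genes past the threshold are shown because FosB proteins bind DNA as part of AP-1 dimers, whose site TGANTCA resembles the cyclic AMP response element TGACGTCA. The RefSeq table (GRCm38.p6) held windows for 7 of the 9 genes, and none for Cckar and Gipr. Each line gives the 250 bases before a start, 5′ to 3′ on the strand of the gene, and capitals mark matches to the motifs named below.
Cck, chr9:121495695-121495944, minus strand: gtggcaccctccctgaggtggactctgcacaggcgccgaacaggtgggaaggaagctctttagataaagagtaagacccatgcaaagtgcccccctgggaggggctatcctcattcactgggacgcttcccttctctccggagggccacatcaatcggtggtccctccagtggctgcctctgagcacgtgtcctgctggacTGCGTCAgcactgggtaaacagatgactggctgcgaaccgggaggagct
Glp1r, chr17:30901617-30901866, plus strand: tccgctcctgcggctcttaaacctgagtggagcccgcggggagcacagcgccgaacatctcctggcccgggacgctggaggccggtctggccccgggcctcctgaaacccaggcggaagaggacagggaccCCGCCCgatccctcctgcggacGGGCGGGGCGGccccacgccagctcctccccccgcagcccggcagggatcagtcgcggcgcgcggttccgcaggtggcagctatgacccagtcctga
Calcr, start 1, chr6:3763624-3763873, minus strand: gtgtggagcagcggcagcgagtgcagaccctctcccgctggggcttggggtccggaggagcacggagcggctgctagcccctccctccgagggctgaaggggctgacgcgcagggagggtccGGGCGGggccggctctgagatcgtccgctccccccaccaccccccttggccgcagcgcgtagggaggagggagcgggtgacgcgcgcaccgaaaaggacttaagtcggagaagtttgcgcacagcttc
Calcr, start 2, chr6:3764714-3764963, minus strand: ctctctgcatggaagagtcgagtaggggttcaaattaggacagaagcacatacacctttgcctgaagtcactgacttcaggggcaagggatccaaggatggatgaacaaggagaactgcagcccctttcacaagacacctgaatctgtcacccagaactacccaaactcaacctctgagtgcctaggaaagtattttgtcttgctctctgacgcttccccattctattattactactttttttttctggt
Adipor2, chr6:119388735-119388984, minus strand: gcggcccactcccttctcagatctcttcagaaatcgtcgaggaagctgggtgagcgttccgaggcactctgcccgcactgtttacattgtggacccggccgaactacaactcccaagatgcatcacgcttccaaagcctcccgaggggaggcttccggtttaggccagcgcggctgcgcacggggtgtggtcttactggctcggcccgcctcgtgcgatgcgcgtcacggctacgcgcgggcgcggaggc

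On both strands, 5 motifs were searched: TGACGTCA, TGANTCA, the variant TGCGTCA of the cyclic AMP response element, the GC box GGGCGG bound by Sp1, and the TATA box TATAAA. Matches of 1 motif may overlap, as in the Glp1r window. The Cck window held TGCGTCA from 49 to 43 bases before the start, and this variant was present in 1.75% of the 32851 windows of all genes. In Cck it is part of an element known from reporter studies in cell culture as a combined cyclic AMP and phorbol ester response element. The match in Cck was therefore known beforehand, and the share of windows does not show how unusual it is. None of the 9 windows of these genes held TGACGTCA or TGANTCA, which were present in 1.55% and 6.75% of all windows. The Glp1r window held 3 GC boxes between 119 and 87 bases before the start, and that of Calcr start 1 held 1, from 128 to 123 bases before it, against 32.7% of all windows with at least 1. The windows of Calcr start 2 and of Adipor2 held no match. Among genes that did not pass, GC boxes numbered 3 in the Ramp3 window and 2 in each Adipor1 window. The windows of Cck and Cckbr held no GC box. The Glp1r window was rich in G and C, at 73.2%, as was that of Calcr start 1, at 70.8%, against a median of 52.4% over all windows. In the genes that did not pass, the share ran from 53.6% for Cckbr to 79.2% for Adipor1 start 2.

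Of the whole arrays, summed signals ranged from 68636594 to 68961786 and median signals from 917.52 to 976. Fosb itself had signals of 1377 and 1220 on the control and 1579 and 2189 on the ΔFosB arrays (log2 fold change 0.52, SE 0.14, adjusted p = 0.0424). This adjusted p lay near the threshold, and the ΔFosB arrays differed from each other more than ΔFosB A did from either control array. The Fosb values under other settings are not given. Whether its probe set reads the transgene was not tested. As a measure of background, 95% of the probe sets of olfactory and vomeronasal receptors lay under a signal of 831, called the receptor range below. The hypothalamic label was checked against 13 marker genes such as Oxt, Trh and Pomc: all passed the filter, but Pomc, Agrp, Nr5a1 and Fezf1 lay in the receptor range on both control arrays. Of these, Agrp, Nr5a1 and Fezf1 had a control mean under the filter signal. Genes of midbrain dopamine neurons were also present, with signals of the dopamine transporter gene Slc6a3 of 10241 and 7804 on the control and 716.97 and 770 on the ΔFosB arrays. In such bulk RNA, fewer cells of a type and less RNA per cell cannot be told apart.

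**Figure D1:**
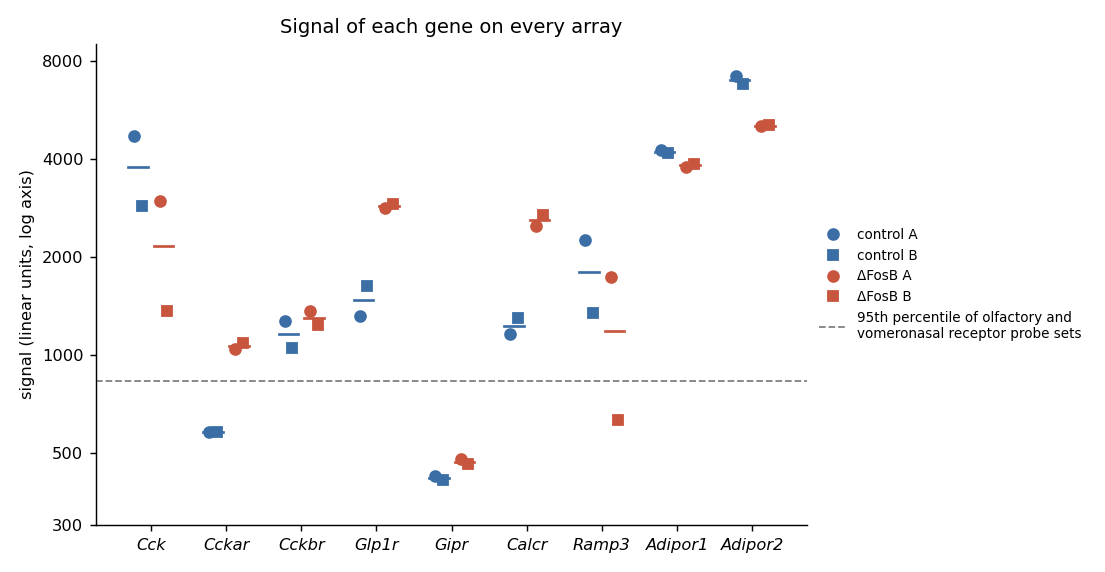
Signal of each gene on the 4 arrays (vertical axis, linear units on a log scale), with circles for arrays A, squares for arrays B, bars at the group means and a dashed line at the 95th percentile of receptor probe sets, 831. The groups do not overlap for Cckar, Glp1r, Calcr and Adipor2, nor for Adipor1 and Gipr, whose differences are smaller. Such separation held for 58.9% of all genes without a filter. For Cck and Ramp3 array B lies below array A in both groups.

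Cck, the peptide gene, had signals of 4699 and 2863 on control A and B, and of 2968 and 1358 on ΔFosB A and B. The groups overlapped, since ΔFosB A lay just above control B. The means were 3781 ± 1298 in control and 2163 ± 1138 in ΔFosB arrays (SD, n = 2). The log2 fold change was -0.87 (SE 0.33, 95% interval -1.62 to -0.12, adjusted p = 0.12). Within a group, array A exceeded array B by 1.64-fold in control and 2.19-fold in ΔFosB mice. With 1 array left out, here and for every gene below, 1 group holds a single array, which is assumed to vary like the other group. The other group's 2 arrays then supply the gene's own spread, which limma draws toward that of other genes. A gene whose arrays differ widely within a group can pass in this way. The log2 fold change of Cck was -1.43 without ΔFosB array A and -0.31 without ΔFosB array B. It was -0.51 without control array A and -1.23 without control array B.

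The genes whose pattern over the 4 arrays was most like that of Cck were Plekhg1, Ramp3, Slitrk6, Synpo2 and Ptpn3. Likeness was the root mean square distance of log2 signals centred on each gene's mean, which ran from 0.11 for Plekhg1 to 0.19 for Ptpn3. Plekhg1 and Synpo2 were on the list of 12 thalamic markers, which was chosen with earlier results of these data known. Of these 12, 11 had lower signals on array B than on array A in both groups, with a median log2 difference of -0.40 in control and -0.57 in ΔFosB mice. The summed signal of the list was 40987 to 53466 on control and 32358 to 43572 on ΔFosB arrays. None was at 0, and Grid2ip alone lay in the receptor range on average. Between genotypes 1 of the 12 rose (Zic1) and 1 fell (Slc17a6), against 5.82% and 6.63% of all genes tested. The median log2 fold change of the 12 was -0.41. Without ΔFosB array A 9 of the 12 fell, and without control array B 3 fell and 0 rose. Without control array A limma called Zic1 alone, since Slc17a6 no longer passed (adjusted p = 0.0734). The Zic1 call ended without control array B (0.0789) and with robust estimation (0.159). The part of thalamic tissue in the Cck values was not tested.

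Cckar, the A-type receptor gene, had signals of 577.71 and 577.96 on control A and B and of 1043 and 1082 on ΔFosB A and B. The groups did not overlap, and the spread within each was small beside the difference. The control signals lay in the receptor range, so Cckar was at least 1.28-fold higher, from the group means with 831 as the level of the control arrays. The measured signals differed by 0.88 on the log2 scale (SE 0.07, adjusted p = 0.000284), and by 0.85 to 0.91 with any 1 array left out, past the threshold each time. The gene passed the filter, set at a mean signal of 717, only through its ΔFosB arrays, and it also passed the test without a filter (adjusted p = 0.000471). In measured signals, the genes of most similar pattern were Dnah1, a dynein heavy chain gene, the orphan receptor gene Gpr165 and the neuroglobin gene Ngb. These 3 rose by 0.83, 0.82 and 0.81 on the log2 scale. Their distances to Cckar rest on its control signals, which were not above background.

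Cckbr, the B-type receptor gene, had signals of 1266 and 1045 on control and of 1359 and 1238 on ΔFosB arrays. The groups overlapped, as control A lay above ΔFosB B. The log2 fold change was 0.17 (SE 0.10, 95% interval -0.05 to 0.39, adjusted p = 0.267), which in folds spans 0.967 to 1.31, and it moved from 0.03 without control array B to 0.31 without control array A. Processing of the cholecystokinin precursor relies on convertases, carboxypeptidase E, the amidating enzyme Pam and tyrosine sulfotransferases. Of 9 such genes tested, limma called 0 (2 at an unadjusted p under 0.05, Cpe and Pam), against 12.5% of all genes tested. The median log2 fold change of the 9 was -0.03. Cpe had a log2 fold change of -0.17 (adjusted p = 0.106) and Pam of 0.13 (adjusted p = 0.128), while the convertase genes Pcsk1 and Pcsk2 had 0.08 and 0.01.

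Glp1r, the receptor gene for glucagon-like peptide 1, had signals of 1313 and 1625 on control A and B and of 2826 and 2906 on ΔFosB A and B. Both ΔFosB arrays lay far above both control arrays. Means were 1469 ± 221 and 2866 ± 56.4 (SD, n = 2), which gave 0.97 on the log2 scale (SE 0.10, 95% interval 0.75 to 1.19, adjusted p = 0.000645). It ran from 0.82 to 1.13 with any 1 array left out and passed each time. The nearest patterns in measured signals were those of Npy2r, a receptor gene for neuropeptide Y, of Calcr, and of the peptidase gene Ecel1, which rose by 1.15 on the log2 scale. The control signals of Npy2r, 531 and 595, lay in the receptor range, so it was at least 1.37-fold higher (adjusted p = 0.000268), and its distances rest on signals not above background.

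Gipr, the second incretin receptor gene, had signals of 423 and 413.11 on control and of 477 and 461 on ΔFosB arrays. All 4 signals lay in the receptor range, and the probe set did not pass the filter. In a fit without a filter, in which 7.57% of 22405 genes passed (3.57% higher and 3.99% lower), its log2 fold change was 0.17 (SE 0.09, 95% interval -0.04 to 0.37, adjusted p = 0.266). The groups did not overlap, as was the case for 58.9% of all genes in that fit. At such signals a difference in Gipr was not detectable, which does not show that there was none.

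Calcr, the calcitonin receptor gene, had signals of 1158 and 1300 on control A and B and of 2486 and 2681 on ΔFosB A and B. The ΔFosB arrays were again both higher, with a gap between the groups much wider than either group's spread. Means were 1229 ± 100.4 and 2584 ± 138 (SD, n = 2), or 1.07 higher on the log2 scale (SE 0.08, 95% interval 0.90 to 1.25, adjusted p = 0.000183). It stayed between 0.99 and 1.16 with any 1 array left out and passed each time. Calcr was most like Npy2r, Ecel1 and Gpr50, an orphan receptor gene of the cells lining the third ventricle, which rose by 1.04. The distance to Npy2r was 0.05 and that between Calcr and Glp1r was 0.08.

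The 3 receptor genes that rose did so beside markers of the hypothalamus itself. Of the 13 markers, 9 rose and 0 fell, against 5.82% and 6.63% of all genes tested. Their median log2 fold change was 0.94, also with genes at their bound. Of the 9, Pomc, Nr5a1 and Fezf1 lay in the receptor range on both control arrays and were higher by at least 1.92-fold, 1.10-fold and 3.15-fold. Nr5a1 and Fezf1 passed the filter only through their ΔFosB arrays. The summed signal of the 13 was 20266 to 31388 on control and 54025 to 56027 on ΔFosB arrays, and none was at 0. Trh, for thyrotropin-releasing hormone, rose by 2.34 and Npy by 0.94, whereas Nkx2-1, a transcription factor gene of the developing and adult hypothalamus, had a log2 fold change of 0.14 (adjusted p = 0.188). Of 11 tested genes of midbrain dopamine neurons, 6 fell and 0 rose, against the same shares of all genes tested. By direction alone, 8 of the 11 were lower and 3 higher. The summed signal of the list was 43814 to 51197 on control and 19842 to 20400 on ΔFosB arrays. The part of these shifts in the values of Calcr, Glp1r and Cckar was not tested.

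**Figure D2:**
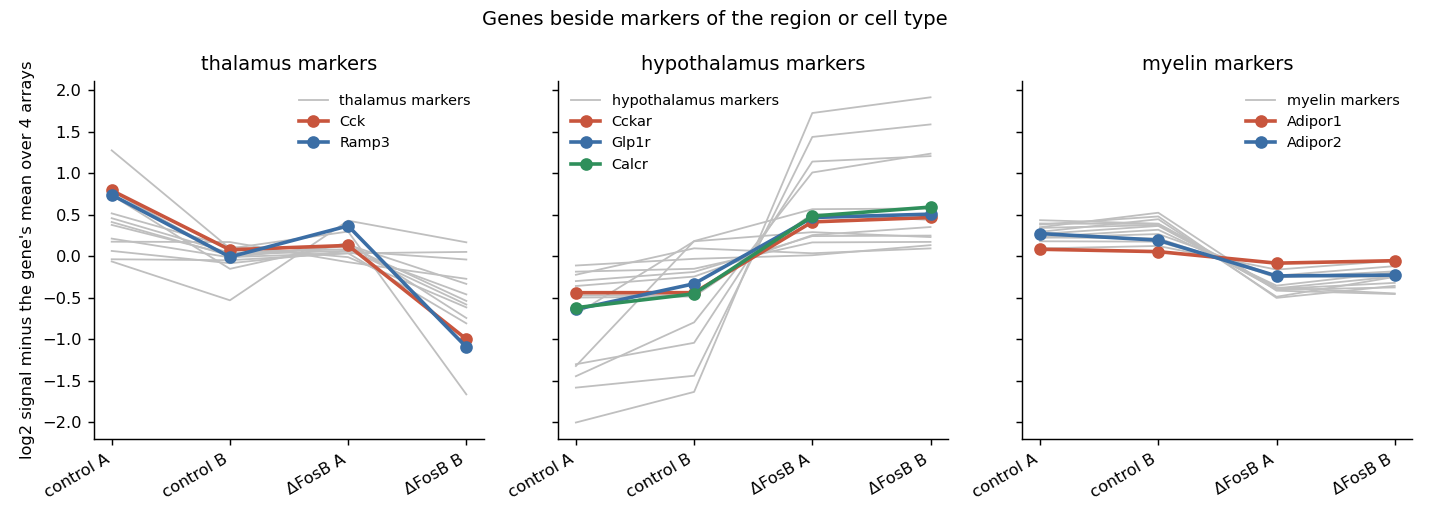
Log2 signal minus each gene's mean over the 4 arrays (vertical axis), by array, for thalamus, hypothalamus and myelin markers (grey) and for genes of the hormone receptor group (coloured); the lines only join the values of 1 gene. Cck and Ramp3 lie among the thalamic genes, lowest on ΔFosB B, while Cckar, Glp1r and Calcr lie among the hypothalamic markers and Adipor2 among the myelin genes.

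Ramp3, whose protein joins the calcitonin receptor to form an amylin receptor and the calcitonin receptor-like receptor to form an adrenomedullin receptor, had signals of 2250 and 1341 on control A and B. On ΔFosB A and B they were 1737 and 632, so the groups overlapped and ΔFosB B alone lay in the receptor range. The log2 fold change was -0.73 (SE 0.40, 95% interval -1.65 to 0.19, adjusted p = 0.262). It was -1.46 without ΔFosB array A, a value that rests on a single ΔFosB array with a signal not above background. Without ΔFosB array B it was 0.0002, without control array A -0.36 and without control array B -1.10. Array A exceeded array B by 1.68-fold in control and by at least 2.09-fold in ΔFosB mice. The probe set carries 2 gene identifiers, those of Ramp3 and of Nacad, so its signal cannot be given to Ramp3 with certainty. The separate probe set of Nacad had signals of 1210 and 1271 on control and of 1187 and 1160 on ΔFosB arrays, without the difference between A and B.

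Of 16 tested genes for related receptors and partners, 2 rose, 2 fell and 12 did not pass. The shares over all genes tested were 5.82% higher and 6.63% lower. The median log2 fold change of the 16 was -0.05. The partners of the calcitonin receptor family, Ramp1, Ramp2 and Calcrl, had log2 fold changes of -0.06, -0.04 and -0.09. Sctr, the secretin receptor gene, lay in the receptor range on both control arrays (720 and 795) and was at least 1.10-fold higher (adjusted p = 0.0498), a call that ended with quantile normalization (adjusted p = 0.11), median centring (0.0553), no filter (0.0744) and each probe set taken alone (0.063). It also ended without control array A (0.255), ΔFosB array A (0.131) or ΔFosB array B (0.077). Of the 10 genes for ligands of these receptors and related peptides, 4 passed the filter. Of the 4, limma called 0 (2 at an unadjusted p under 0.05, Gip and Pyy), against 12.5% of all genes tested. Gip, for the incretin that binds Gipr, had control signals of 702 and 792 in the receptor range and did not pass (adjusted p = 0.0692), and the gut peptide gene Pyy had a log2 fold change of 0.17 (adjusted p = 0.12), while the glucagon precursor gene Gcg, at signals of 484 to 517, lay in the receptor range.

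Adipor2 had signals of 7159 and 6774 on control A and B and of 5026 and 5061 on ΔFosB A and B. Both ΔFosB arrays were lower than both control arrays. Means were 6966 ± 272 and 5043 ± 24.5 (SD, n = 2), with a difference of -0.47 on the log2 scale (SE 0.05, 95% interval -0.59 to -0.35, adjusted p = 0.00115), which was -0.51 to -0.43 with any 1 array left out. Adipor2 was most like Ephb1, an ephrin receptor gene, and B3galt5, a galactosyltransferase gene, which fell by 0.48 and 0.48. A second Ephb1 probe set had a log2 fold change of -0.18 (adjusted p = 0.194). The third most similar probe set carried 7 gene identifiers and named no single gene.

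Adipor1, the other adiponectin receptor gene, had signals of 4244 and 4160 on control and of 3778 and 3857 on ΔFosB arrays. The ΔFosB arrays were lower in both cases, by 1.1-fold on average. The log2 fold change was -0.14 (SE 0.05, 95% interval -0.26 to -0.02) and did not pass (adjusted p = 0.128). Of the 8 genes past the filter, 5 had groups that did not overlap, 3 higher and 2 lower, against 60.1% of all genes tested, with 34.8% higher and 25.3% lower. With Gipr these were 6 of the 9 genes, 4 higher and 2 lower, against 58.9% of all genes without a filter, with 39.6% higher and 19.3% lower.

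All 12 genes of the myelin list fell on the same arrays as Adipor2, with a median log2 fold change of -0.67, and 11 or 12 fell when 1 array was left out. Their summed signal was 109851 to 113180 on control and 75983 to 81513 on ΔFosB arrays. Mog, for a glycoprotein of the outer myelin sheath, fell by 0.83, none of the list was at 0, and the part of myelin in the Adipor2 values was not tested. Downstream of the adiponectin receptors, 1 of 13 tested genes fell, 0 rose and 12 did not pass. Among all genes tested 6.63% fell and 5.82% rose. The gene that fell was Ppargc1a, a coactivator of mitochondrial genes, by 0.39 (SE 0.05, adjusted p = 0.00218), while the adaptor gene Appl1 had a log2 fold change of 0.01 and the kinase genes Prkaa1 and Prkaa2 of -0.11 and 0.08.

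Further members of the adiponectin receptor family and binding partners are on the list of related genes. Cdh13, which encodes the adiponectin-binding T-cadherin, rose by 0.43 (SE 0.07, adjusted p = 0.00514), from signals of 4115 and 3646 to 5311 and 5151. Paqr8, a progestin receptor gene of the same protein family as Adipor2, fell by 0.28 (SE 0.05, adjusted p = 0.00813). Paqr4 fell by 0.33 (SE 0.08, adjusted p = 0.0324), a call that ended without control array A (0.183) or ΔFosB array B (0.104). Genes for G proteins and cyclic AMP signalling, through which the peptide receptors act, numbered 21. Of these 1 rose and 1 fell, against 5.82% and 6.63% of all genes tested. Adcy6, an adenylyl cyclase gene, rose by 0.27 (adjusted p = 0.0463) and Adcy1 fell by 0.46 (adjusted p = 0.0429). The Adcy6 call ended without control array A (0.172), control array B (0.134) or ΔFosB array B (0.174), and the Adcy1 call without control array A (0.212) or ΔFosB array B (0.0873). Both calls also ended with quantile normalization, no filter and each probe set taken alone, that of Adcy6 with median centring, and that of Adcy1 with robust estimation or no intensity trend.

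**Figure D3:**
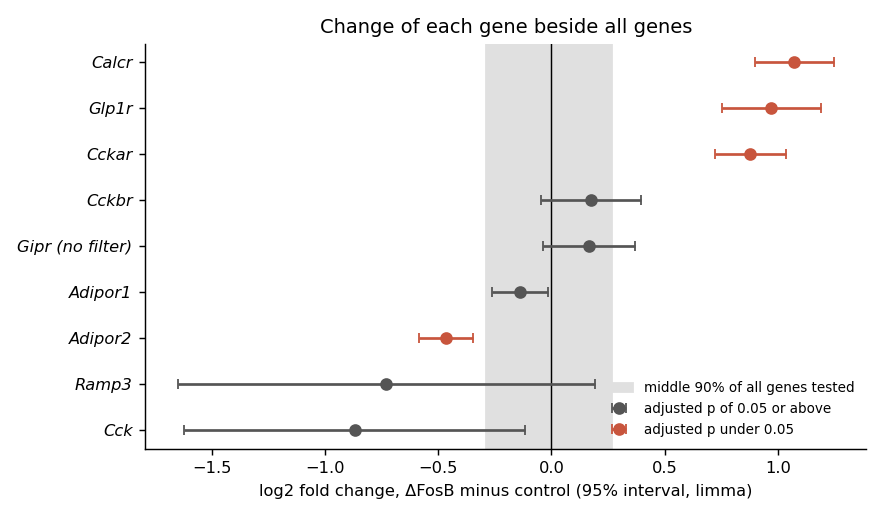
Log2 fold change of each gene, ΔFosB minus control, with its 95% interval from limma (horizontal axis); the grey band spans the middle 90% of all 15229 genes tested, from -0.29 to 0.27. Calcr, Glp1r and Cckar lie to the right of the band and Adipor2 to the left, the value of Cckar being that of measured signals with controls in the receptor range, while the intervals of Cck and Ramp3 are wide.

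**Figure D4:**
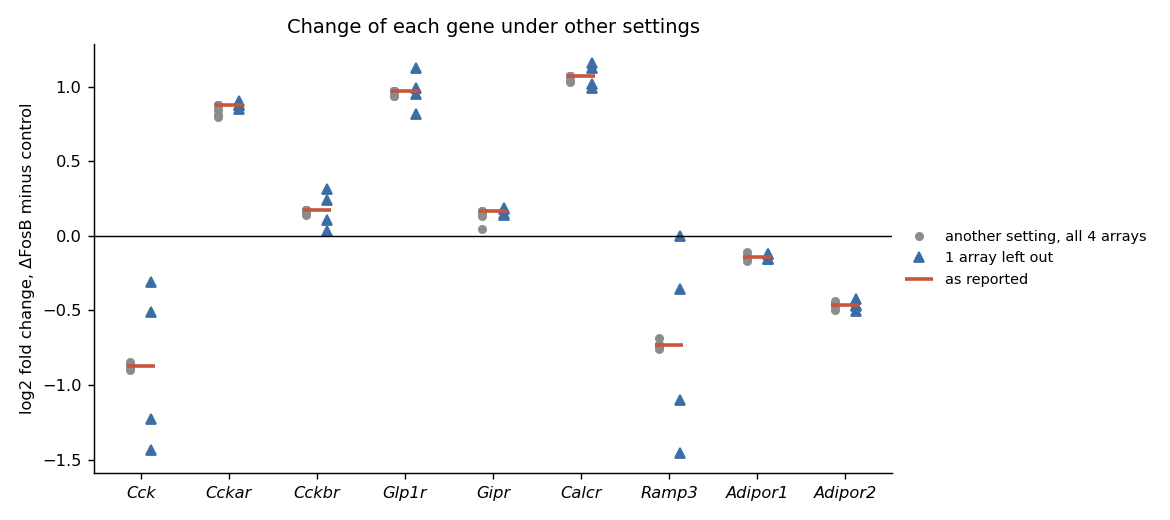
Log2 fold change of each gene (vertical axis) as reported (bar), under other settings with all 4 arrays (circles) and with 1 array left out (triangles). Calcr, Glp1r and Cckar, the last in measured signals, stay at 0.7975 or above and Adipor2 between -0.51 and -0.43. Cck ranges from -1.43 to -0.31 and Ramp3 from -1.46 to 0.0002.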

How the data were processed

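Hypothalamic RNA was labelled with biotin and hybridized to Affymetrix arrays according to the labels. The authors deposited probe set intensities on a linear scale, already at a common level between arrays, and MAS5, without a version, is the only tool named, per the submitters' processing notes. No genome build or annotation release is stated there. The authors' sheet equalled the series' value table (largest difference 0). The other 28 columns of per-array values in the workbook were not used.

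Log2 values were taken with no pseudocount. Symbols came from the authors' gene column and, for the 23015 of 25175 named probe sets with 1 gene identifier, were updated through a RefSeq table (GRCm38.p6). The 2160 with several identifiers kept the authors' symbol. Each gene was represented by its brightest probe set, and genes were tested where the mean log2 signal lay in the upper 60% of all probe sets (717 and above), 15229 in all. Groups were compared with limma (intensity trend, no block). The fit was first tested on simulated data. Genes and lists were chosen with earlier results of these data known. Genes named beside the 9 were those of nearest pattern, and up to 2 higher and 2 lower genes past the threshold per list. Other list genes were named for their role, after their values were seen. Lists of cortical, astrocyte, vessel and choroid plexus genes had 3 of 8, 1 of 6, 0 of 5 and 1 of 3 tested genes higher and 0, 2, 2 and 0 lower. Alternatives were quantile normalization, median centring, a pseudocount of 64, other filters, robust estimation, no intensity trend, probe sets averaged or taken alone, a replicate block, and each array left out in turn. A filter at the receptor percentile and the use of probe sets of 1 gene identifier only were added after seeing the data. Fits ran in limma 3.58.1 under R 4.3.3, and tables and figures were made with matplotlib 3.10.9, numpy 2.4.6 and pandas 2.3.3 under Python 3.11.15. The number of arrays limits the precision. For 1 marker gene no value is reported here.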

Additional observations from a re-analysis of the deposited data

How the results depend on the processing

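Calcr, Glp1r and Adipor2 kept direction and call under 16 of 16 alternatives, and Cckar under the 14 that tested it. Alternatives gave no value for Cckar at the upper 40% of signal and the receptor percentile, for Cckbr at the former, for Gipr with any filter, and for Ramp3 with probe sets of 1 identifier. Of all genes 726 to 1774 passed with 1 array left out, the lowest without control array A, and of the 8 genes 4 to 6. Arrays A and B share only a letter. With that letter as a replicate block, which leaves 1 residual degree of freedom, 3827 genes and 7 of the 8 passed, among them Cck (-0.87, adjusted p = 5.96e-10), Ramp3 (-0.73, adjusted p = 3.62e-06) and Adipor1 (-0.14, adjusted p = 0.0489). Deviations of arrays of the same letter correlated at 0.24 across genes, which are not independent replicates. With 1 array left out Ramp3 ranged from -1.46 (without ΔFosB array A) to 0.0002 (without ΔFosB array B, a turned sign; the cause was not tested) and Cck from -1.43 to -0.31. Median centring called 33.8% of passing genes higher, against 46.8%, with a shift of -0.03 in the median of all genes. With 2 arrays per group, the wide intervals of Cck and Ramp3 leave the size of any difference unknown. The interval of Ramp3 also spans both directions.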

Other observations

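A fall from array A to array B as large as that of Cck in both groups was shared by few genes. Falls of any size were more common, as 11 of the 12 thalamic markers fell from A to B in both groups. In measured signals, 3 of 15228 other genes tested fell from A to B by at least as much as Cck in both groups. These were Ramp3, Prkcd and Slc17a7, which were looked up after the count was seen. On ΔFosB B, Ramp3 and Slc17a7 lay in the receptor range, so whether they fell as much as Cck in ΔFosB mice is not known. Prkcd, a protein kinase C gene that marks relay neurons of the thalamus, had signals of 7117 and 3137 on control A and B and of 3614 and 928 on ΔFosB A and B. Slc17a7, the vesicular glutamate transporter gene of cortical and some thalamic neurons, had 2596 and 1009 on control A and B and 1206 and 344 on ΔFosB A and B. Both were lowest on ΔFosB B, where Slc17a7 lay in the receptor range. Slc17a7 was on the cortical list, of whose 8 tested genes 4 had lower signals on array B than on array A in both groups. The median log2 difference of that list was -0.09 in control and -0.02 in ΔFosB mice. Over all genes tested the median absolute log2 difference between A and B was 0.07 in each group, against 0.71 in control and 1.13 in ΔFosB mice for Cck.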
